A study of Mus musculus with 10 samples.

Results

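Slc2a3 encodes Glut3, a facilitated glucose transporter, and its mRNA was followed here through 10 mouse lung tumors together with the genes that rise and fall with it. It is 1 gene of the 39017 in the count table and 1 of the 16216 with enough reads to be tested. It was selected on its measured levels in these tumors, which vary widely, so its levels and its correlations with other genes are given as descriptions, without a test. Of the tumors, 5 were KP and 5 were KPG1. KP is a mouse model of lung adenocarcinoma started by Cre recombinase, and KPG1 carries floxed alleles of Slc2a1, the gene of Glut1, in addition. The genotype label reads homozygous fl/fl for KPG1. For the controls that label reads heterozygous fl/wt while another label reads WT, so the KP tumors may already have lost 1 copy of Slc2a1. All mice were C57BL/6 males that received Ad5SPC-Cre, an adenovirus in which the SPC promoter limits Cre to surfactant protein C producing cells. Tumors were macrodissected 18 weeks and 6 days after initiation, and RNA came from the cells left after removal of CD45-positive leukocytes, which still include non-immune stroma. The labels do not say whether the tumors of a group came from separate mice, so the p-values measure the spread between these samples only.

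Glucose enters cells down its gradient through transporters of the Slc2a family, of which Glut1 and Glut3 are the most studied in tumors. Glut3 has a high affinity for glucose and is best known from neurons, although macrophages and other blood cells make it too. Its gene, like Slc2a1 and the genes of many glycolytic enzymes, is a known target of the hypoxia-inducible factors.

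Libraries held 32427029 to 49534284 counts. In a principal component analysis the first component held 28.0% of the variance, with KP 1 at one end (-74.0) and KP 5 at the other (71.8), the same libraries that had the highest and the lowest Slc2a3. Many results that rest on these libraries are therefore also given without KP 1 and KP 5. In the limma-voom fit across all genes, 28 of 16216 genes passed an adjusted p of 0.05 (0.173%), 10 higher in KPG1 (0.0617%) and 18 lower (0.111%). Alveolar type 2 markers, the cell type in which the SPC promoter is active, were abundant in every library, with a summed level of 21758 to 71951 CPM in KP and 59965 to 106920 CPM in KPG1 over the 15 genes of the list. CPM is the read count relative to library size, with the scaling factors of the trimmed mean of M-values. The 8 markers of leukocytes in general summed to 38.4 to 98.5 CPM in KP and 39.7 to 67.7 CPM in KPG1, and none of them was at 0 in every library.

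Slc2a3 (ENSMUSG00000003153, chromosome 6, 122727809 to 122801640, minus strand, mm10) was read 26855, 2189, 1275, 422 and 166 times in KP 1 to KP 5. The 5 KPG1 libraries held 8366, 4859, 14469, 2917 and 4788 reads. Scaled to CPM, the KP tumors had 648, 68.8, 34.4, 9.96 and 3.81, and the KPG1 tumors had 183, 126, 328, 83.4 and 123. The highest and the lowest tumor of the series were thus both KP, 170-fold apart, whereas the KPG1 tumors differed at most 3.93-fold. All 5 KPG1 tumors lay above the KP median of 34.4 CPM, but KP 1 exceeded every one of them, so the groups overlapped.

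**Figure D1:**
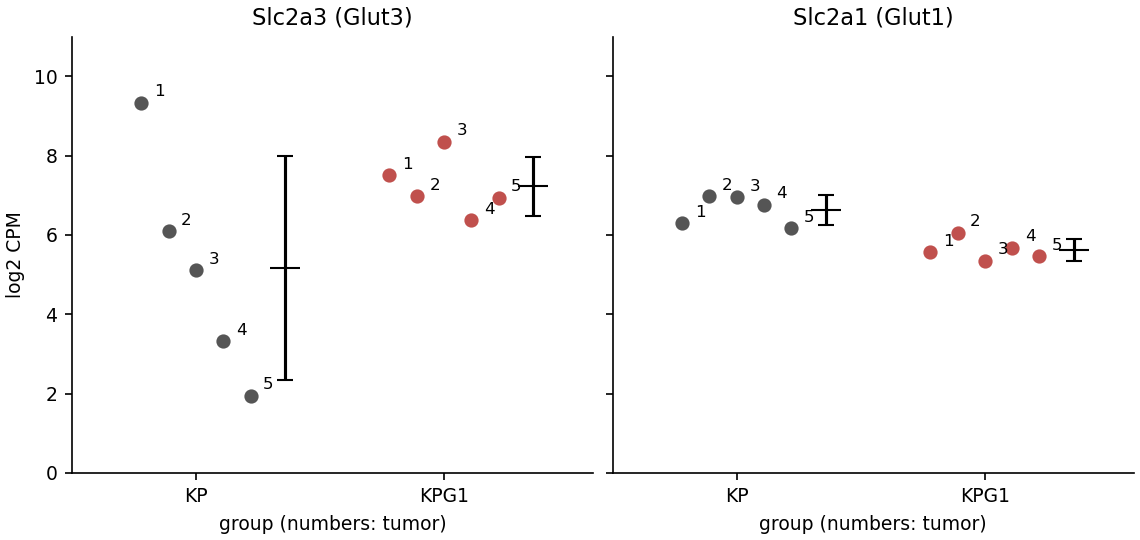
Level of Slc2a3 (left) and Slc2a1 (right) in log2 CPM (vertical axis) in 5 KP and 5 KPG1 tumors (points, numbered by tumor), with the mean and SD of each group beside the points. Slc2a3 ran from 1.95 to 9.34 in KP and from 6.38 to 8.36 in KPG1, and Slc2a1 did not overlap between groups.

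On the log2 CPM scale the levels were 9.34, 6.11, 5.11, 3.32 and 1.95 in KP and 7.51, 6.97, 8.36, 6.38 and 6.94 in KPG1. In order, KP 1 came first, then KPG1 3, KPG1 1, KPG1 2, KPG1 5 and KPG1 4, and then KP 2, KP 3, KP 4 and KP 5. The mean was 5.16 ± 2.83 in KP and 7.23 ± 0.74 in KPG1 (SD, n = 5), so the 2.07 between the means was smaller than the SD within KP. That SD ranked 39 among the tested genes, larger than in 99.8% of them, where the median gene had an SD of 0.39. In KPG1 the SD of Slc2a3 ranked 1612, larger than in 90.1% of genes. Averaged in CPM the groups were close, with 153 ± 278 in KP and 169 ± 95.8 in KPG1 (SD, n = 5).

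The fitted difference between genotypes moved with single tumors. In limma-voom the log2 fold change was 2.09 (SE 1.09). Without KP 1 it was 3.22 and without KP 5 it was 1.25, while leaving out both gave 2.43. edgeR's quasi-likelihood test and DESeq2, which were fitted to counts and not to log values, gave 0.14 and 0.13. In bulk samples such as these, fewer cells that make a transcript and less of it per cell cannot be told apart.

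Slc2a1 (ENSMUSG00000028645, chromosome 4, 119108711 to 119137983, plus strand), the targeted gene, was measured to check the labels. Its level was 6.30, 6.99, 6.95, 6.76 and 6.16 log2 CPM in KP and 5.57, 6.06, 5.35, 5.68 and 5.47 in KPG1, without overlap between the groups. The difference in means was -1.01, with a two-sided exact permutation p of 0.00794, the smallest that the 252 rearrangements of 10 tumors can give. Groups without overlap were found for 456 of all tested genes (2.81%). The limma adjusted p over all genes was 0.0675, outside the threshold. Without KP 5 it was 0.0220 and without KP 1 and KP 5 it was 0.0161 (limma). Leaving out KP 1, KP 2, KP 3 or KP 4 alone moved it the other way, to 0.101, 0.115, 0.150 and 0.169 (limma).

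The levels of Slc2a3 and Slc2a1 were set against each other across tumors. Pearson's r between them was 0.04 over the 5 KP tumors and -0.54 over the 5 KPG1 tumors, and it was -0.05 once each value was taken relative to its group mean, or -0.16 without KP 1 and KP 5. The spread of the pair was unequal, since the SD of Slc2a1 in KP, at 0.38 on the log2 CPM scale, was close to that of the median gene.

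To compare the levels of different genes, CPM was divided by the length of each gene's exons in kb. Slc2a3 then stood at 89.4, 9.49, 4.75, 1.38 and 0.53 CPM per kb in KP and at 25.2, 17.3, 45.2, 11.5 and 17.0 in KPG1. The ratio of Slc2a3 to Slc2a1 per kb was 3.98, 0.262, 0.135, 0.0444 and 0.0257 in KP 1 to KP 5. In KPG1 1 to KPG1 5 it was 1.87, 0.911, 3.89, 0.787 and 1.34. Slc2a3 was therefore the more abundant of the pair in 1 of 5 KP tumors and in 3 of 5 KPG1 tumors, and the lowest KPG1 ratio exceeded all KP ratios but that of KP 1. Slc2a1, the targeted gene, had a median of 31.0 CPM per kb in KP and 13.5 in KPG1. A higher ratio in KPG1 thus does not by itself mean more Slc2a3. Without a correction for length, the ratio in KPG1 2 and KPG1 4 was 1.88 and 1.63, on the other side of 1.

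Among 15 glucose transporters, Slc2a3 made up 61.6%, 10.03%, 5.75%, 1.77% and 0.555% of the summed CPM per kb in KP 1 to KP 5. Its share in KPG1 1 to KPG1 5 was 26.4%, 18.1%, 45.4%, 16.8% and 22.8%. It was the most abundant transporter in KP 1 and KPG1 3. Slc2a1 led in KP 3, and Slc50a1, which encodes a transporter of the SWEET family, led in the other 7 tumors. These are shares of mRNA in a list that includes the fructose transporter Slc2a5, and they do not measure glucose uptake. The sum also holds Slc2a1, which was lower in KPG1.

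**Figure D2:**
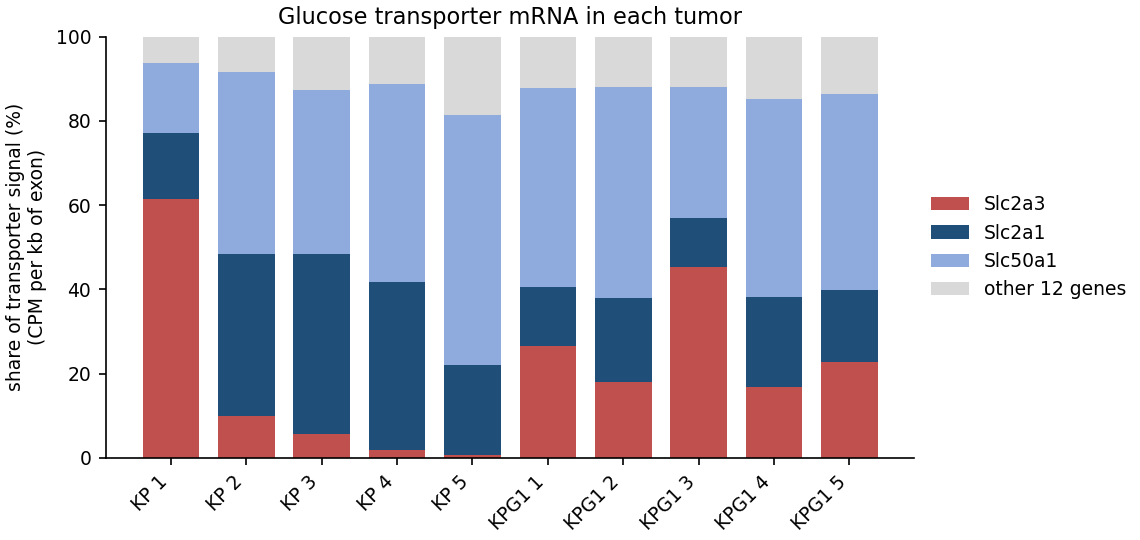
Share of each glucose transporter in the summed CPM per kb of exon of 15 transporters (vertical axis, percent) in each tumor (horizontal axis). The share of Slc2a3 (red) was 61.6% in KP 1 and 0.555% in KP 5, and lay between 16.8% and 45.4% in KPG1.

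Of these 15 genes, 12 had enough reads. Among the 11 other than Slc2a3, 0 passed the threshold between genotypes in limma, where 1, Slc2a1, had an unadjusted p under 0.05 (all genes 11.6%). edgeR called 0 (all genes 0.247%) and DESeq2 called 1 (all genes 3.38%). Over the 11 tested members other than Slc2a3 the median log2 fold change was 0.23, with 7 above 0, against a median of 0.02 for all genes. Slc2a5, the fructose transporter, had at most 29 counts in a library, and Slc2a7 and Slc5a2 had at most 12 and 5, so these 3 were not tested.

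Other transporters varied with Slc2a3 to different degrees. Slc2a12 (Glut12, chromosome 10, 22645011 to 22704285) was at 1.55, 1.44, 0.72, 0.43 and 0.18 log2 CPM in KP and at 1.46, 1.33, 1.60, 1.15 and 0.82 in KPG1. Its r with Slc2a3 was 0.93 in KP and 0.72 in KPG1, and its group-centred r was 0.89, or 0.83 without KP 1 and KP 5. Slc2a6, a transporter best known from leukocytes, had an r of 0.92 in KP and 0.55 in KPG1, but no more than 60 counts in any library. Its group-centred r was 0.87, or 0.62 without KP 1 and KP 5. Slc2a10 ran the opposite way, with an r of -0.82 in KP and -0.76 in KPG1. It was lowest at 3.21 in KP 2 and 3.25 in KP 1 and highest at 4.91 log2 CPM in KP 5. Without KP 1 and KP 5 its group-centred r was -0.51. Slc50a1 had an r of -0.85 in KP and -0.12 in KPG1, and Slc5a1, a sodium-coupled glucose transporter, had -0.52 and 0.83. Their group-centred r of -0.70 and -0.36 was 0.05 and -0.08 without KP 1 and KP 5.

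To find genes that move with Slc2a3 in both genotypes, r was computed separately over the 5 KP and the 5 KPG1 tumors. With 5 tumors each r is imprecise and high values are frequent. In KP 1673 genes had an r of at least 0.8 (10.3%) and 1752 an r of at most -0.8 (10.8%), and in KPG1 465 (2.87%) and 636 (3.92%) did. By the group-centred r over all 10 tumors alone, 514 genes reached 0.8 (3.17%) and 679 reached -0.8 (4.19%). The limits in both genotypes together left 104 genes, called followers here, with an r of at least 0.8 in each genotype (0.641%). A further 112 genes, called opposed here, had an r of at most -0.8 in each (0.691%). At the limit, Rgs16 was just inside with 0.833 in KP and a value just over 0.8 in KPG1, and Tfap2b was just outside with 0.862 and 0.799. On the opposed side Hspa13 was just inside and Dnaja3 just outside.

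**Figure D3:**
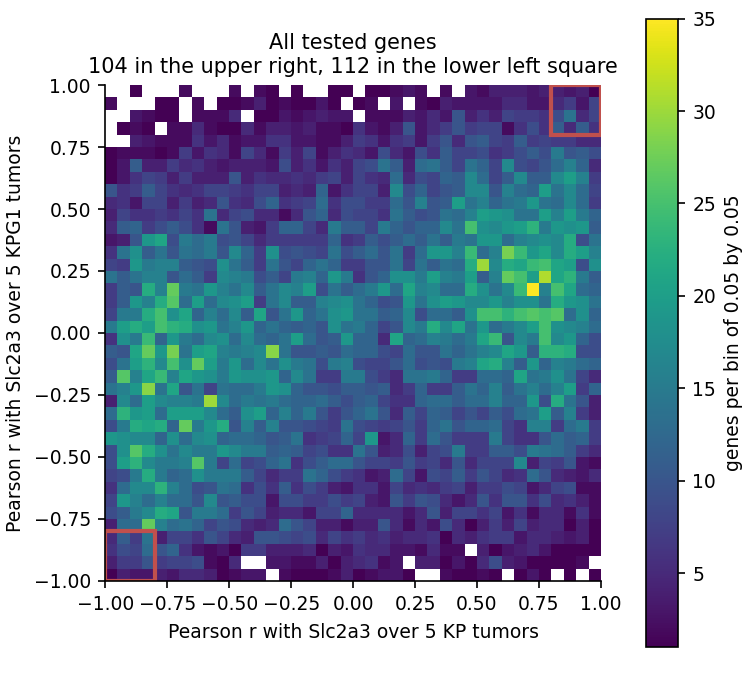
Pearson r with Slc2a3 over the KP tumors (horizontal axis) against that over the KPG1 tumors (vertical axis) for all other tested genes, with the color giving the number of genes per bin. The red squares mark the 104 followers and the 112 opposed genes.

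Of the genes with an r of at least 0.8 in KP, 63.5% had a positive r in KPG1, where 49.96% of all genes did. Of the genes at -0.8 or below in KP, 65.4% had a negative r in KPG1. When the whole rule was applied again without KP 1, 59 of the 104 followers were still followers, and without KPG1 3, the KPG1 tumor with the most Slc2a3, 47 were. Without KP 1 and KP 5, 49 followers and 44 of the 112 opposed genes met the rule. With ranks in place of values, 56 and 54 did.

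Followers and opposed genes differed in how abundant they were, a property that the rule did not use. The median follower had a mean level of 2.33 log2 CPM and the median opposed gene 6.12, with 4.32 for all genes. Protein-coding genes made up 96 of the 104 and 107 of the 112 (92.3% and 95.5%, against 86.3% of all genes). Chromosome 6, on which Slc2a3 lies, held 4 followers (3.85%), and it held 4.96% of all tested genes.

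The followers had no common direction between genotypes. In limma 0 of 104 passed the threshold (all genes 0.173%), 9 had an unadjusted p under 0.05 (all genes 11.6%), and DESeq2 called 2, both lower in KPG1 (548 of all 16216 genes, 3.38%). Their median log2 fold change was 0.09, against 0.02 for all genes, and 63 had a fitted value above 0 (60.6%, all genes 52.7%). Groups did not overlap for 2 followers (all genes 2.81%), Serpinb9b, a serine protease inhibitor, and Cish, a suppressor of cytokine signaling, and both had lower values in every KPG1 tumor. Cish was at 5.70, 5.23, 5.39, 4.92 and 5.00 log2 CPM in KP and at 4.68, 4.59, 4.88, 4.55 and 4.56 in KPG1, and the limma fit gave -0.59 (SE 0.16, adjusted p 0.206).

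Of the followers, 34 had a mean of at least 1 log2 CPM and a pooled SD within groups of at least 0.5, and the 15 of these with the largest r in the genotype where r was smaller are described by role. Their group-centred r lay between 0.81 for Tdo2 and 0.96 for Emid1. Part of this set encodes proteins of the extracellular matrix and the cell surface. Emid1 (chromosome 11, 5106265 to 5152257), a secreted protein with an EMI domain, was at 3.65, 2.18, 2.43, 0.77 and 0.37 log2 CPM in KP and at 2.89, 2.08, 3.02, 1.91 and 1.98 in KPG1. KP 1 and KPG1 3 were the highest tumors of their groups for it, as for Slc2a3, which the choice by r favors. The group-centred r of Emid1 was 0.89 without KP 1 and KP 5.

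Col5a3 (chromosome 9, 20770050 to 20815067), a chain of type V collagen, was at 4.37, 2.53, 3.61, 1.69 and 1.80 log2 CPM in KP and at 3.13, 2.67, 3.92, 2.81 and 2.87 in KPG1. Its r was 0.87 in KP and 0.91 in KPG1. Ltbp4, which binds latent TGF-β in the matrix, had an r of 0.90 and 1.00, but its group-centred r fell from 0.87 to 0.63 without KP 1 and KP 5. For Adamts7, a matrix metalloprotease, the corresponding values were 0.89 and 0.86. L1cam (chromosome X, 73853778 to 73896105), a cell adhesion molecule, was at 5.52, 4.33, 4.49, 3.61 and 2.13 log2 CPM in KP and at 4.37, 4.22, 4.64, 3.48 and 3.76 in KPG1. Its group-centred r of 0.93 was 0.80 without these libraries.

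Another part of the set encodes enzymes. Lpl (chromosome 8, 68880491 to 68907448), the lipase that releases fatty acids from lipoproteins, was at 7.03, 4.33, 4.80, 3.76 and 3.06 log2 CPM in KP and at 4.28, 4.24, 5.23, 3.24 and 4.39 in KPG1, with an r of 0.96 and 0.92. Tdo2 (chromosome 3, 81957090 to 81976202), which opens the breakdown of tryptophan, varied most of the 15. It was at 3.79, 1.74, 2.25, -0.75 and 0.34 log2 CPM in KP and at 4.46, 3.12, 6.13, 3.28 and 2.56 in KPG1, with a log2 fold change of 2.54 (limma adjusted p 0.333). Moxd1, a copper-dependent monooxygenase, ranged from -0.15 to 3.22 in KP and from 0.42 to 3.38 in KPG1, and its group-centred r was 0.82, or 0.65 without KP 1 and KP 5.

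The other 7 encode signaling, chromatin and cytoskeletal proteins. Map4k1 (chromosome 7, 28982050 to 29003279), a kinase of blood cells also known as HPK1, had an r of 0.96 in KP and 0.98 in KPG1, and the smaller of these was the largest among the 15. Its level was 2.62, 1.13, 1.23, 0.85 and 0.39 log2 CPM in KP and 1.59, 1.22, 2.14, 1.06 and 1.42 in KPG1. Chd7, a chromatin remodeler, was at 5.12, 4.95, 4.85, 4.12 and 3.81 in KP and at 4.60, 4.46, 5.28, 4.18 and 4.45 in KPG1. Its r was 0.91 and 0.98, and its group-centred r was 0.86 with all tumors and 0.90 without KP 1 and KP 5. Mtss1l, an actin and membrane adaptor, Nin, the centrosomal protein ninein, and Spata7, a protein of the photoreceptor cilium, likewise kept a group-centred r of 0.87, 0.87 and 0.95. Dmpk, a serine/threonine kinase, fell from 0.85 to 0.74.

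Dusp4, a phosphatase of MAP kinases, shows how far a high r can rest on single tumors. It was at 8.01, 7.19, 7.37, 7.25 and 5.95 log2 CPM in KP and between 6.09 and 6.37 in KPG1. KP 1 and KP 5 were its extremes in KP, and without them its group-centred r was 0.23 and not 0.86.

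**Figure D4:**
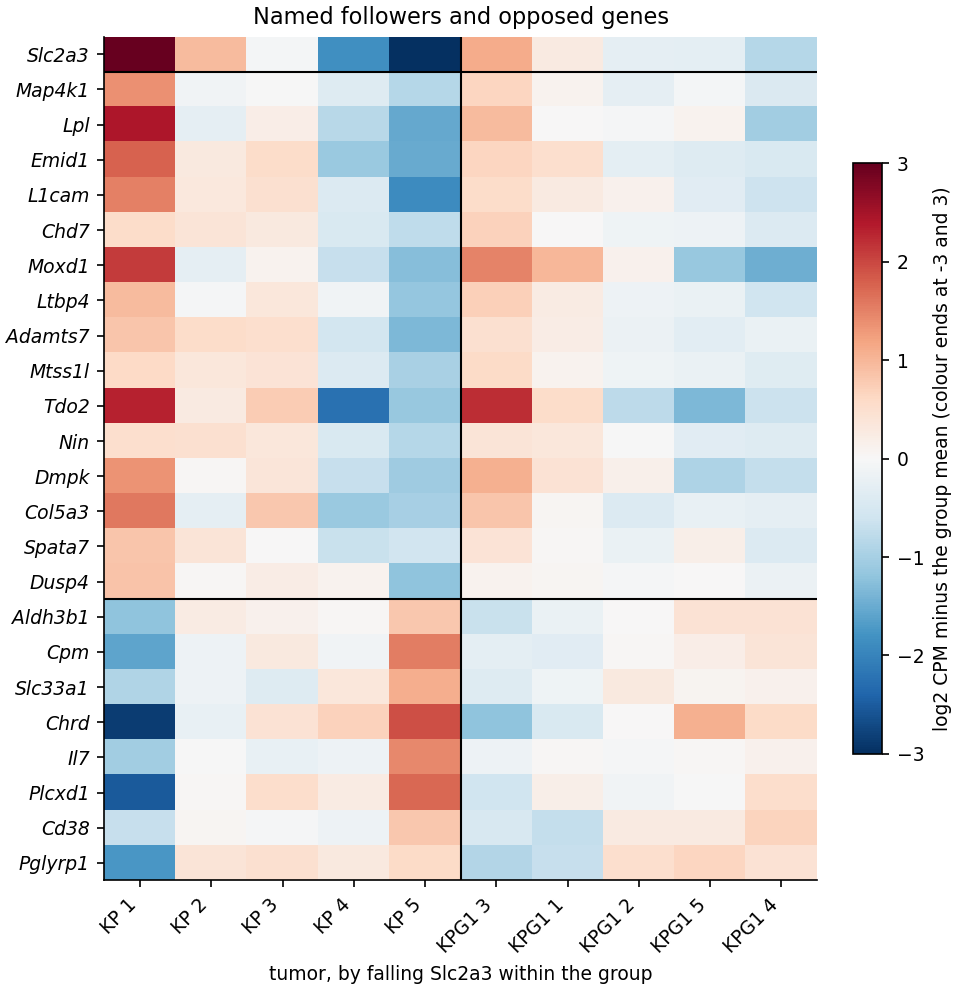
Level of Slc2a3, the 15 named followers and the 8 named opposed genes (rows) relative to the mean of the group, in log2 CPM (color), in each tumor (columns, ordered by falling Slc2a3 within KP and within KPG1). KP 1 and KPG1 3 have the highest values for most followers and the lowest for most opposed genes. They hold the most Slc2a3 of their groups, and the genes were picked by their r with it. The pattern thus follows largely from the choice.

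Since Slc2a3 is a known target of hypoxia-inducible factors, promoters were searched for ACGTG and GCGTG, the core words those factors bind, on both strands of the 250 bases before the start in RefSeq (build GRCm38.p6). CACGTG, the E-box, holds ACGTG on both strands and was counted as ACGTG. Of 104 followers 75 had a promoter in the table, and 37 of these held either word (49.3%), as did 39 of 77 opposed genes (50.6%) and 6489 of 10968 tested genes (59.2%). In the list of hypoxia response genes it was 17 of 19 (89.5%), but these genes were listed for their known role in that response. The promoters of 3 named followers outside annotated exons are shown to give examples with 2, 1 and 0 words, marked in capitals and written 5′ to 3′ on the strand of the gene. They lie at chr9:20815068-20815317 on the minus strand, chr12:70112036-70112285 on the minus strand and chr10:24223267-24223516 on the plus strand, in this order.
Col5a3: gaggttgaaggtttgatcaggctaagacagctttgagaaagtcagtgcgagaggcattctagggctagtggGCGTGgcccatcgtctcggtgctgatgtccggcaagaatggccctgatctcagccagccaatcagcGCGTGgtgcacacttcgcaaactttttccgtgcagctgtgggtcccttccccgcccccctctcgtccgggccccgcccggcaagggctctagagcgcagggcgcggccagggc
Nin: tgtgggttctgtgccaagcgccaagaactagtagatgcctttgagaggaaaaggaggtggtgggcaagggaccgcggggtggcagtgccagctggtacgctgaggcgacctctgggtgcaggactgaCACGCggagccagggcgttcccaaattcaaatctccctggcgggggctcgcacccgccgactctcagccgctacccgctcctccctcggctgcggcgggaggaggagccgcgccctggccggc
Moxd1: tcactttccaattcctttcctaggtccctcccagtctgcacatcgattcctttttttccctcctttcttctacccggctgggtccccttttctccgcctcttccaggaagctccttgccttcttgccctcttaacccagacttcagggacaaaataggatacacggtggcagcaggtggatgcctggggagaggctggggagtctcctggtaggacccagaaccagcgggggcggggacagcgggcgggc
Nin has several starts, and its promoter at chr12:70102855-70103104 on the minus strand held 0 words. Such words are short and frequent, and a match is no evidence of binding. Among the named followers, promoters of Map4k1, Emid1, L1cam, Moxd1, Ltbp4, Tdo2, Nin, Dmpk, Col5a3 and Spata7 were read. No promoter of Slc2a3 was read, nor of the named followers Lpl, Chd7, Adamts7, Mtss1l and Dusp4.

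Opposed genes were mostly abundant and varied less. Of the 112, 16 passed the limits on level and SD, and the 8 with the most negative r in the genotype where it was weaker were Aldh3b1, Cpm, Slc33a1, Chrd, Il7, Plcxd1, Cd38 and Pglyrp1. Chrd (chromosome 16, 20733127 to 20742384), the BMP antagonist chordin, was at 0.21, 2.83, 3.47, 3.74 and 4.99 log2 CPM in KP and at 1.96, 2.45, 1.23, 3.01 and 3.51 in KPG1. The tumors with most Slc2a3 in each group, KP 1 and KPG1 3, were its lowest, which the choice by r favors. The r of Chrd was -0.98 and -0.87. Without KP 1 and KP 5 its group-centred r was -0.75, and that of Slc33a1, which carries acetyl-CoA into the endoplasmic reticulum, was -0.77. Slc33a1 was at 4.76, 5.49, 5.27, 5.98 and 6.75 log2 CPM in KP and at 5.75, 6.16, 5.50, 6.01 and 5.95 in KPG1.

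The others depended more on these libraries. The group-centred r of Cpm, a carboxypeptidase of the alveolar surface, was -0.91 with all tumors and -0.44 without KP 1 and KP 5. Aldh3b1, an aldehyde dehydrogenase, had -0.86 and -0.44. For the cytokine Il7 the values were -0.85 and -0.05, and for Cd38, an enzyme that consumes NAD, they were -0.72 and -0.39. Plcxd1, a protein with a phospholipase C domain, had -0.93 and -0.57, and Pglyrp1, a secreted protein that binds bacterial peptidoglycan, had -0.79 and -0.50.

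Among the 112, 3 genes passed the limma threshold between genotypes, all lower in KPG1 (lower over all genes 0.111%). They were named after their values were seen. Tnfrsf23, a decoy receptor for TRAIL, was at 6.75, 6.74, 6.89, 7.12 and 7.20 log2 CPM in KP and at 5.37, 5.90, 5.20, 5.87 and 6.09 in KPG1 (log2 fold change -1.26, SE 0.18, limma adjusted p 0.0304). S100a14, an epithelial calcium-binding protein, was between 8.78 and 9.23 in KP and between 7.71 and 8.18 in KPG1 (-0.96, SE 0.14, limma adjusted p 0.0304). Rhbdl2, a rhomboid protease, was between 1.79 and 3.63 in KP and between -1.44 and 0.22 in KPG1 (-3.35, SE 0.46, limma adjusted p 0.0240). These 3 were lower in every KPG1 tumor, but leaving out KP 3, KP 4, KPG1 1, KPG1 2, KPG1 3 or KPG1 4 in turn left 0 opposed genes past the threshold, and leaving out KP 1 or KPG1 5 left 1. With the replicate number as a block 0 opposed genes passed.

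Genes of glucose use mostly had negative correlations with Slc2a3. Over the 23 tested genes of glycolysis and lactate export the median group-centred r was -0.45, with 18 below 0, whereas all genes had a median of 0.00 with quartiles of -0.43 and 0.41. Tpi1 (triosephosphate isomerase) and Slc16a1 (the monocarboxylate transporter Mct1) both had a group-centred r of -0.86, and Pfkfb3, a regulator of glycolytic flux, had -0.78. The values were -0.73, -0.50 and -0.56 without KP 1 and KP 5. Tpi1 was at 8.69, 9.12, 9.41, 9.58 and 9.47 log2 CPM in KP and between 8.88 and 9.28 in KPG1, so KP 1, with the most Slc2a3, had the least Tpi1 of all tumors. The relation was seen mostly in KP. In KP the median r of this list was -0.54, in KPG1 it was -0.06, and without KP 1 and KP 5 the group-centred median was -0.24.

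The 25 genes of the hypoxia response outside glycolysis gave nearly the same values, with a median group-centred r of -0.42 and 23 of 25 below 0. P4ha1, a prolyl hydroxylase of collagen, had the most negative value at -0.93. It was at 6.29, 7.05, 7.44, 7.48 and 7.76 log2 CPM in KP and between 7.09 and 7.39 in KPG1. Ankrd37 and Vhl, the latter part of the ligase that degrades hypoxia-inducible factors, had -0.77 and -0.78, but Vhl had a positive r of 0.65 in KPG1. With KP 1 and KP 5 left out P4ha1 had a group-centred r of -0.62, Ankrd37 -0.22 and Vhl 0.33. The median over the list was -0.52 in KP, -0.08 in KPG1 and -0.25 without KP 1 and KP 5. Between genotypes 0 of the 23 and 0 of the 25 genes passed the threshold in limma or in edgeR, with 6 and 3 at an unadjusted p under 0.05 in limma (all genes 11.6%), and DESeq2 called 1 and 2 (all genes 3.38%). The median log2 fold changes were -0.21 and -0.22.

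Genes that sense glucose did not move together with Slc2a3, with a median group-centred r of 0.18, or 0.17 without KP 1 and KP 5, and 6 of 10 above 0. Arrdc3, an arrestin of this list, had 0.73, Mlxipl, the gene of ChREBP, had 0.70, and its partner Mlx had -0.75. These were 0.35, 0.07 and -0.27 without KP 1 and KP 5.

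**Figure D5:**
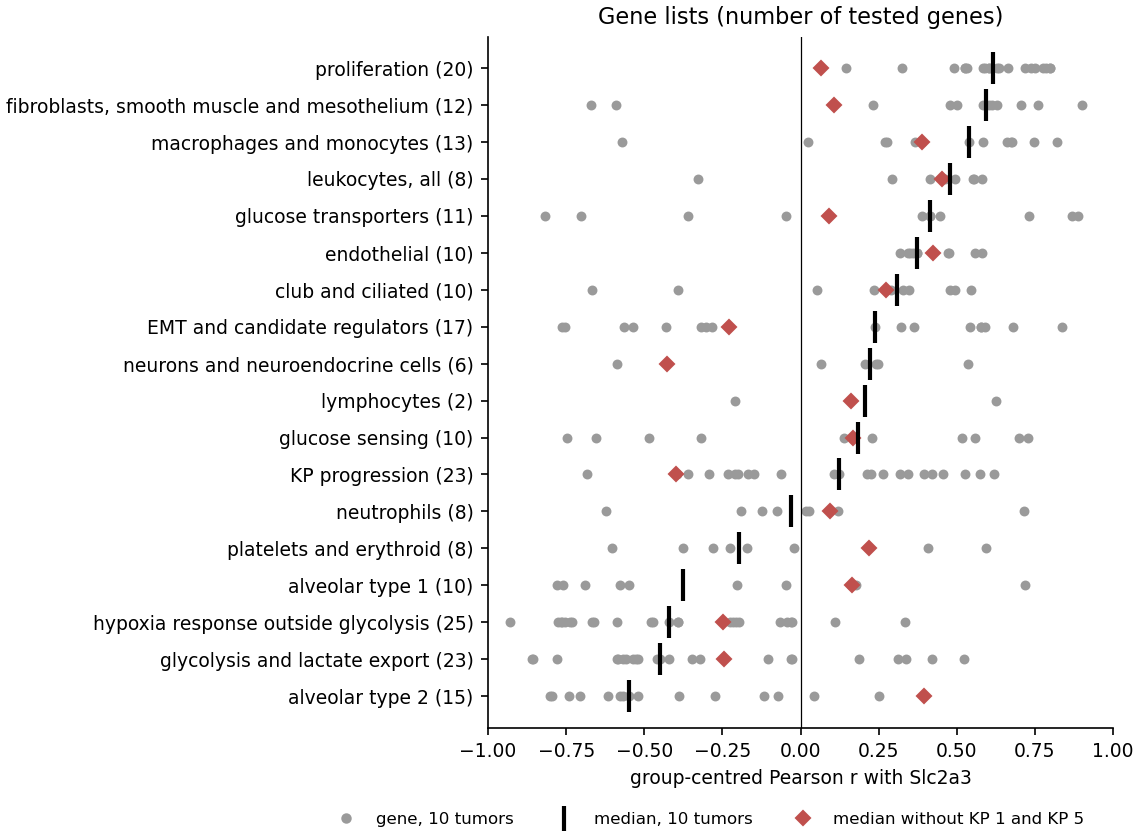
Group-centred Pearson r with Slc2a3 (horizontal axis) of the tested members of each gene list (gray points), the list's median over 10 tumors (black bar) and its median without KP 1 and KP 5 (red diamond). The medians of proliferation and of alveolar type 2 genes were 0.62 and -0.55 with all tumors and 0.07 and 0.40 without these libraries. Group means were those of all 10 tumors in both cases.

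Proliferation genes had the highest median, 0.62, with 20 of 20 above 0. The list's mean level was 4.72, 4.48, 4.65, 4.39 and 2.42 log2 CPM in KP and 4.58, 4.42, 5.19, 4.92 and 4.94 in KPG1. KP 5, with the least Slc2a3, was low, and KPG1 3 was the highest of its group. Mcm2, Mcm3 and Mcm5, parts of the replicative helicase, had a group-centred r of 0.79, 0.80 and 0.80. Without KP 1 and KP 5 these were 0.26, 0.03 and 0.27, and the list's median was 0.07.

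Alveolar type 2 markers had the lowest median, -0.55, with 13 of 15 below 0. Sftpd (surfactant protein D), Slc34a2 and Lamp3 had a group-centred r of -0.80, -0.79 and -0.74, and of -0.20, 0.31 and 0.32 without KP 1 and KP 5. Lamp3, a protein of lamellar bodies, was at 6.89, 10.22, 9.90, 8.93 and 10.52 log2 CPM in KP and between 10.03 and 10.96 in KPG1, with KP 1 far below the rest. Without KP 1 and KP 5 the median of the list was 0.40, on the other side of 0. In limma 0 of 15 passed the threshold between genotypes, although all 15 had a fitted value higher in KPG1 and the median log2 fold change was 0.72. Alveolar type 1 markers had a median of -0.38, or 0.16 without KP 1 and KP 5.

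Genes of tumor progression and of the epithelial-mesenchymal transition had median group-centred r of 0.12 and 0.24 over 23 and 17 tested genes, which turned to -0.40 and -0.23 without KP 1 and KP 5. In the progression list the median r was 0.36 in KP and -0.50 in KPG1, and in the other list it was 0.19 and -0.17. Cdh2 (N-cadherin) had a group-centred r of 0.84 that came from KP, with 0.88 there and -0.63 in KPG1, and it was -0.29 without KP 1 and KP 5. Cldn4, a tight junction protein, had an r of 0.72 in KP and -0.60 in KPG1, and its group-centred r of 0.58 was -0.49 without these libraries. Nfkb1 and Sp1, transcription factors of the list, had a group-centred r of -0.77 and -0.76, which was -0.23 for Nfkb1 and -0.75 for Sp1 without KP 1 and KP 5.

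Cells other than tumor cells can also make Glut3, so their markers were set beside it. Macrophage and monocyte genes had a median group-centred r of 0.54, with 12 of 13 above 0, and general leukocyte genes had 0.48, with 7 of 8. Without KP 1 and KP 5 these were 0.39 and 0.45. Itgam (CD11b) was at 4.06, 3.11, 3.49, 2.65 and 2.63 log2 CPM in KP and at 2.12, 2.20, 2.55, 1.36 and 2.44 in KPG1, and its r was 0.93 and 0.73, with a group-centred r of 0.82, or 0.67 without these libraries. In KP the 13 macrophage markers summed to 85.1 to 160.4 CPM, where Slc2a3 ran from 3.81 to 648 CPM. In KPG1 these markers summed to 71.4 to 196.0 CPM, where Slc2a3 ran from 83.4 to 328 CPM. In KP 1 the sum was 123.5 CPM, where KP 2 and KP 3 had 137.7 and 160.4. The mean of the list in log2 CPM, which weights its genes equally, was 2.74 in KP 1, 2.22 in KP 2, 2.77 in KP 3, 2.07 in KP 4 and 1.95 in KP 5. In KPG1 it was 2.16, 2.01, 2.74, 2.12 and 1.67, with KPG1 3 the highest. Their part in the level of Slc2a3 was not tested.

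Fibroblast, smooth muscle and mesothelial genes had a median of 0.59, with 10 of 12 above 0. The relation was seen in KP, where their median r was 0.72, whereas it was -0.13 in KPG1. Dcn (decorin) was the only member of any list among the followers, which made up 0.641% of all genes. Dcn was at 4.82, 3.64, 3.25, 3.34 and 3.51 log2 CPM in KP and at 4.65, 4.01, 4.99, 3.88 and 4.71 in KPG1. Its r was 0.82 in KP and 0.83 in KPG1, and its group-centred r of 0.76 was 0.63 without KP 1 and KP 5. Acta2 (smooth muscle actin) had an r of 0.98 in KP and 0.24 in KPG1, and its group-centred r of 0.90 was 0.52 without KP 1 and KP 5. The 13 genes summed to 342.2 to 651.4 CPM in KP and 328.1 to 609.7 CPM in KPG1, and without KP 1 and KP 5 the median was 0.11. Endothelial genes had 0.37 with 10 of 10 above 0, or 0.42 without these libraries, and summed to 335.3 to 1145 CPM in KP and 509.5 to 1621 CPM in KPG1.

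Neuronal and neuroendocrine genes, a class in which Glut3 is abundant, summed to at most 16.1 CPM in KP and 12.7 CPM in KPG1 over 11 genes, and the 6 tested had a median of 0.22, or -0.43 without KP 1 and KP 5. Club and ciliated genes had 0.31, lymphocyte genes 0.21 with only 2 tested, neutrophil genes -0.03 and platelet and erythroid genes -0.20. Leaving out KP 1 and KP 5 gave 0.27, 0.16, 0.09 and 0.22. In all 18 lists 0 members passed the limma threshold, with 0 to 11 members at an unadjusted p under 0.05. The most, 11 of 23, were in tumor progression, and 1877 of all 16216 genes reached it (11.6%). edgeR called 0 members too, and DESeq2 called between 0 and 8 members of a list, again the most in tumor progression (all genes 3.38%). No marker list held a member at 0 in every library.

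The genes around Slc2a3 were examined within 250 kb on each side. C3ar1 (chromosome 6, 122847138 to 122856161), the receptor of the complement fragment C3a and a gene of macrophages, had an r of 0.88 in KP and 0.57 in KPG1, and its group-centred r of 0.82 was 0.19 without KP 1 and KP 5. Necap1 (122874474 to 122888941), an adaptor of endocytosis, ran the opposite way with -0.87 and -0.79, and -0.85 without them, within a narrow range of 5.35 to 5.74 log2 CPM in all tumors. Nanog and Foxj2, on either side of Slc2a3, had a group-centred r of 0.31 and -0.25, and of 0.55 and 0.72 without them. The processed pseudogene Gm10224 (122698414 to 122699028) passed the threshold between genotypes in limma (log2 fold change 4.17, SE 0.61, adjusted p 0.0304). It is 98.9% identical to Rpl15 over 445 bases, so its counts are uncertain, and its group-centred r with Slc2a3 was -0.15, or -0.71 without KP 1 and KP 5.

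Reads of Slc2a3 itself can be shared with other genes only in part. Within its annotated span lies the processed pseudogene Gm4482 on the same strand, which is not in the count table. Between Slc2a3 and Slc2a1 transcripts the best alignment of at least a read length was 86.0% identical over 86 bases, a difference that reads of 85 bases can resolve. The closest match to any other gene was 97.2% over 178 bases with Snf8, from 1 of 8 Slc2a3 transcripts.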

How the data were processed

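RNA was measured in 5 KP and 5 KPG1 tumors, grouped by the labels, in single-end reads of 85 bases from a stranded mRNA kit. Per the submitters' processing notes, the authors used bcl2fastq 2.17, cutadapt 1.4.2, HISAT2, featureCounts 1.4.4 and edgeR with build mm10. The strand setting and the annotation of the counting are not given in the sources used here. The deposited counts are whole reads per Ensembl gene, not normalized, and all 390170 values of the joint table equal the per-library files. The log2 values as deposited are normalized by the authors and served as an alternative only. A count rises with gene length and depth, and copies of a sequence share reads. The engineered alleles that start the tumors are not reported here.

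filterByExpr (edgeR 4.0.16) replaced the study's filter on TPM, TMM factors scaled the libraries, and KPG1 was tested against KP with voom and limma 3.58.1 (R 4.3.3), without covariates and with Benjamini-Hochberg adjustment over 16216 genes (threshold 0.05). Levels are log2 CPM with a prior count of 2, where CPM is computed from the deposited counts. Pearson's r with Slc2a3 was taken within each group (n = 5) and over group-centred values (10 libraries), with no p. The group-centred r without KP 1 and KP 5 kept the group means of all 10 libraries, except where a refit is stated. The limit for followers and opposed genes was 0.8 in both groups. Named genes were Slc2a3, the transporters, the 15 best followers and 8 best opposed genes with a mean of at least 1 log2 CPM and an SD of at least 0.5, up to 3 members of each list by group-centred r, and genes within 250 kb. The gene, the lists and the tests were chosen with earlier results of these data known. Positions and exon lengths are from GENCODE M21, which held 37607 of 39017 gene IDs, promoters from RefSeq, and copies were searched with blastn 2.17.0. The fit and the correlations were tested on simulated counts. Alternatives were edgeR's quasi-likelihood test, DESeq2 1.42.0, other scaling, filters, weights, a replicate block and leaving out libraries. Leaving out KP 1 and KP 5 together and a prior count of 0.5 were added after the data were seen. Counting error allows a gene at 0 counts up to 3 counts in a library, 0.0606 to 0.0925 CPM, and PCR copies were not separated.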

Additional observations from a re-analysis of the deposited data

Results flagged for a closer look

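The search covered 106 groups of 5 values, the named genes and the list means in each genotype. In 2 of them a tumor lay far from the other 4. Independent groups would give 5.3 by chance, about 1 in 20. That number does not apply here, since the followers and opposed genes were picked by their r with Slc2a3. Pglyrp1, one of the opposed genes, was at 3.69 log2 CPM in KP 1, below 5.73 to 6.00 in the other KP tumors, a gap of 0.883 of the whole range where the critical value is 0.71. The mean of the proliferation list was 2.42 log2 CPM in KP 5, below 4.39 to 4.72 in the other KP tumors, a gap of 0.855 of the range. KP 1 and KP 5 also hold the highest and the lowest Slc2a3, and Pglyrp1 was picked for its negative r with Slc2a3.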

How the results depend on the processing

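The log2 fold change of Slc2a3 stayed positive in each of 18 alternatives, from 0.13 (DESeq2, which gave no adjusted p) to 3.22 (without KP 1). That of Slc2a1 stayed negative and passed the threshold at -1.04 in DESeq2, -1.13 with a quality weight per library, -1.14 without KP 5 (-0.92 to -1.14 with 1 library left out) and -1.29 without KP 1 and KP 5. Genes past the threshold numbered 29 lower in edgeR, 125 higher and 423 lower in DESeq2, 31 lower with no filter on low counts, 5 higher and 31 lower at a mean CPM of at least 20, 51 higher and 177 lower with quality weights, and 44 lower without KP 1 and KP 5. Leaving out 1 library gave 3 to 71 higher and 1 to 223 lower, with both maxima without KP 5. The replicate block gave 4 higher and 1 lower, left Slc2a1 outside the threshold and left 0 of the 3 opposed genes past it. Same-numbered tumors were correlated at -0.12, 0.08, 0.06, 0.06 and -0.16 in their deviations. These values gave no sign that the numbers pair the samples, but they cannot exclude it.

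Followers and opposed genes numbered 16 and 16 at a limit of 0.9, 514 and 679 by a group-centred r of 0.8 alone (310 and 419 without KP 1 and KP 5), 222 followers with no filter, and 41 and 55 at a mean CPM of at least 20. Leaving out 1 library gave 108 to 279 followers and 125 to 265 opposed genes, with r then over 4 tumors in 1 group. From the deposited log2 values 100 of the 104 followers met the rule again. With the scaling and the group means refitted each time, as for the 310 and 419, 1144 group-centred r of 88 named genes were compared. Of these, 51 moved beyond their interval, most often without KP 1 and KP 5. Of the 88 named genes, 13 changed sign there, and 1 of these, Cdh2 at -0.30, had an r of 0.8 or more in size over all 10 tumors. Without a length correction the ratio of Slc2a3 to Slc2a1 was 3.86, 1.88, 8.04, 1.63 and 2.77 in KPG1 1 to KPG1 5, and that of KPG1 2 and KPG1 4 crossed 1. Genes with few counts, such as Slc2a6, are also limited by depth.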

Other observations

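A few other followers and opposed genes are named here after their values were seen, picked for their known roles. Slc16a5, a monocarboxylate transporter, was at 1.84, 0.03, 0.74, 0.15 and -1.96 log2 CPM in KP and at -0.42, -0.32, 0.07, -1.46 and -0.83 in KPG1, with an r with Slc2a3 of 0.87 and 0.88 and a group-centred r of 0.44 without KP 1 and KP 5. Arnt2, a partner of hypoxia-inducible factors, had an r of 0.92 and 0.84 and was highest in KP 1 at 1.34 and in KPG1 3 at 1.78 log2 CPM. Of the 25 hypoxia response genes outside glycolysis, 23 had a negative group-centred r with Slc2a3. G6pdx, the first enzyme of the pentose phosphate pathway, was among the opposed genes with an r of -0.86 and -0.85, within a narrow range of 6.43 to 6.76 in KP and 6.10 to 6.63 log2 CPM in KPG1. The amino acid transporter Slc7a8 had an r of 0.84 and 0.90 and ranged from -1.07 to 2.49 log2 CPM in KP. For Arnt2, G6pdx and Slc7a8 the dependence of r on KP 1 and KP 5 is not given here. None of these 4 genes passed the limma threshold between genotypes.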
